A study of Mus musculus with 56 samples.

Results

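Night-fed liver was compared between the end of the dark phase, ZT24, and a point 4 h earlier, ZT20. Zeitgeber time (ZT) counts the hours since the lights came on. The comparison holds 8 of the 56 libraries of the series, 4 livers at each time, and they were chosen by their labels and not by any measured value. All 8 came from female C57BL/6J mice aged 9 weeks that were housed in groups under 12 h of light and 12 h of dark, fed freely for 7 days, and then given food at night only for 7 days (nighttime-restricted feeding, NRF), so ZT20 to ZT24 covers the last hours in which food was offered. Each animal gave a liver at a single time, so a change is a difference between groups of animals. Other mice of the same strain, sex and age were held on daytime-restricted feeding (DRF). In those mice ZT8 to ZT12 ends the feeding phase and matches the night-fed interval in feeding stage, while ZT20 to ZT24 matches it in clock time and falls in the phase without food. NRF animals taken at ZT0 are further livers of the clock time of ZT24.

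The liver clock is a feedback loop. CLOCK or NPAS2 pairs with BMAL1, the product of Arntl, to activate genes through E-boxes, and the PER and CRY proteins made in turn repress that pair. The PAR bZIP factors DBP, TEF and HLF carry the rhythm on to metabolic genes through D-boxes. Feeding is a strong time cue for the liver, and in the course of a feeding period the hepatocyte stores glycogen, makes fatty acids and sterols, and handles heat and protein load with chaperones.

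Levels are scaled counts, the counts per gene that the deposited values imply, divided by a library scale, and each of the 8 libraries sums to between 929975 and 1025594. They carry no correction for gene length and compare libraries, not genes. A log2 change is a difference of group means of log2(scaled count + 1) and is given with its standard error, and a gene was called when its adjusted p (limma, Benjamini-Hochberg over 25397 genes) was under 0.05. On that scale the change of a gene with few counts is understated. Recovered counts came to between 376 and 700 (in units of 1e6) per library, and replicates of a group correlated at between 0.989 and 0.993 across genes. Of 7 hepatocyte markers tested 0 were called, and Alb, which encodes albumin, averaged 97509 scaled counts at ZT20 and 97678 at ZT24. In bulk liver, fewer cells of a type and less RNA per cell cannot be told apart.

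Of 25397 genes, 481 (1.89%) were called, 212 (0.835%) higher at ZT24 and 269 (1.06%) lower. The called genes changed by a median of 0.43 log2 units in size, against 0.07 over all genes tested, and 31 of them changed by more than 1, 11 upward and 20 downward. In 410 of the 481 the 4 livers of ZT24 lay wholly above or wholly below the 4 of ZT20, which held for 7.46% of all genes. The count rested on single livers: it was 251 without ZT24 replicate 4, 267 without ZT20 replicate 2 and 270 without ZT20 replicate 3. Fitted on the 8 livers alone, with the spread between animals estimated from them only, 77 genes were called. Of 60 called genes picked by the naming rule given below, 47 lost their call in that fit. The 1.89% over all genes is the share to set beside each count of called list members below. The lists were chosen with earlier results of these data known.

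Of the 10 clock repressors tested, 5 fell over these 4 h and 0 rose. All 3 Period genes and both Cryptochrome genes fell, while Npas2 rose and Arntl measured 74.3 ± 4.05 (SD, n = 4) scaled counts at ZT20 and 75.0 ± 4.13 (SD, n = 4) at ZT24. Per2 stood at 75.3, 79.5, 63.4 and 54.2 scaled counts in the 4 livers of ZT20 and at 11.4, 26.3, 14.5 and 18.8 in those of ZT24. The lowest liver of ZT20 was thus above the highest of ZT24. Mean Per2 went from 68.1 ± 11.5 (SD, n = 4) to 17.7 ± 6.46 (SD, n = 4), a log2 change of -1.93 ± 0.26 (SE) with an adjusted p of 9.2e-06. Per3 fell from 18.03, 11.4, 13.4 and 10.9 to 5.83, 3.20, 2.66 and 2.74, a log2 change of -1.67 ± 0.20 (adjusted p = 8.4e-07). Per1 fell from 5.87, 5.22, 7.43 and 5.25 to 2.75, 1.99, 1.02 and 0.914, a log2 change of -1.43 ± 0.27 (adjusted p = 0.0016). In neither gene did the groups overlap. Per2 lies on chromosome 1 (chr1:91415982-91459324, minus strand, GRCm38), Per3 on chromosome 4 (chr4:151003652-151044665, minus strand) and Per1 on chromosome 11 (chr11:69095217-69109960, plus strand).

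Cry2 measured 43.9, 47.9, 47.2 and 44.8 scaled counts at ZT20 and 27.4, 25.4, 23.6 and 22.2 at ZT24, a log2 change of -0.88 ± 0.10 (adjusted p = 8.4e-07). Cry1 went from 154, 194, 204 and 190 to 133, 129, 82.9 and 92.4, a log2 change of -0.78 ± 0.20 (adjusted p = 0.024). Both genes were lower in every liver of ZT24 than in any of ZT20. The Cry1 call was lost on leaving out any of 5 livers, ZT20 replicates 2, 3 and 4 and ZT24 replicates 3 and 4 (largest adjusted p 0.11). The other 5 of the 10 repressors tested did not pass: Nr1d2 had a log2 change of -0.57 (adjusted p = 0.062), Bhlhe40 of -0.65 (0.18), Ciart of -0.30 (0.19), Bhlhe41 of -0.01 (1) and Nr1d1, which encodes REV-ERBα, of 0.48 (0.57). Ciart, Bhlhe41 and Nr1d1 averaged under 2 scaled counts in both groups. Some passed under alternatives: Nr1d2 (lower) with the low-value filter, with the replicate block or without ZT20 replicate 2 or ZT24 replicate 1, Ciart (lower) on the deposited values, with a pseudocount of 0.1 or in the compared groups alone, and Nr1d1 (higher) on the deposited values. Over the 10 repressors the median log2 change was -0.71, against 0.000105 over all genes tested.

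Among the activators, Npas2, the alternative partner of BMAL1, rose: it stood at 1.78, 5.65, 2.54 and 3.27 scaled counts at ZT20 and at 5.73, 5.18, 7.34 and 12.3 at ZT24, a log2 change of 1.01 ± 0.17 (adjusted p = 0.00032). Its groups overlapped in 1 liver of ZT20, replicate 2. Clock (log2 change 0.16, adjusted p = 0.79) and Rora (-0.06, 0.85) did not pass.

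Of the PAR bZIP factors, Tef and Hlf fell. Tef was at 36.6, 29.5, 35.9 and 33.4 scaled counts at ZT20 and at 18.6, 15.1, 8.16 and 5.96 at ZT24, a log2 change of -1.55 ± 0.18 (adjusted p = 8.4e-07) and a level 2.83-fold higher at ZT20. The Tef call was lost in the fit of the 8 livers alone (adjusted p = 0.12). In that fit the calls of Per1, Per2, Per3, Cry1, Npas2 and Hlf were lost as well, while that of Cry2 was kept. The calls of Cry1, Npas2 and Hlf were also lost on the deposited values. Hlf went from 30.9, 38.9, 52.7 and 32.6 to 22.8, 27.4, 21.3 and 20.1, a log2 change of -0.71 ± 0.19 (adjusted p = 0.034), and the call was lost on leaving out any of 5 livers. Dbp, already low at ZT20, averaged 1.22 ± 0.169 (SD, n = 4) and then 0.442 ± 0.233 (SD, n = 4) scaled counts, without overlap, and did not pass on this scale (log2 change -0.63 ± 0.21, adjusted p = 0.13), though it did on the deposited values and with a pseudocount of 0.1. Nfil3, which represses at the same D-boxes, had a log2 change of 0.16 (adjusted p = 0.79).

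**Figure D1:**
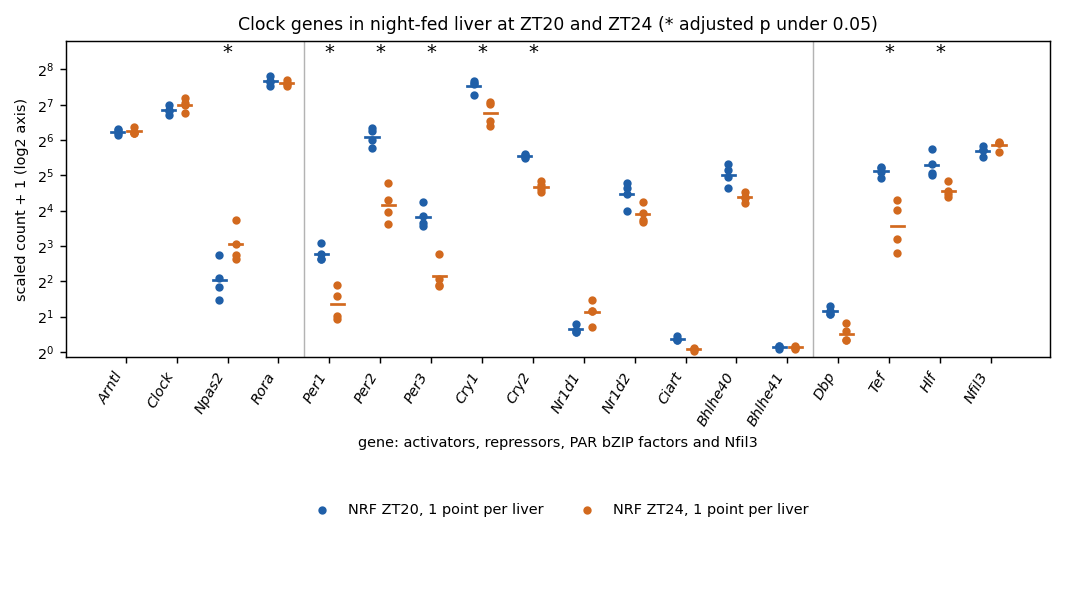
Scaled count + 1 (log2 axis) of 18 clock genes in each of the 4 livers at ZT20 (blue) and the 4 at ZT24 (orange) of night-fed mice, with bars at the group mean on the log scale and stars at the genes with an adjusted p under 0.05. The orange points of Per1, Per2, Per3, Cry1, Cry2, Tef and Hlf all lie below the blue ones, those of Npas2 lie mostly above, and those of Arntl, Clock and Rora overlap.

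Several of the genes that fell furthest outside the core loop are known clock-controlled genes. Wee1, a kinase that restrains entry into mitosis, fell from 12.7, 14.3, 13.8 and 11.3 scaled counts to 5.32, 5.43, 5.11 and 3.61, a log2 change of -1.26 ± 0.15 (adjusted p = 1.0e-06). Usp2, a deubiquitinase, fell from 8.74, 9.58, 11.3 and 7.42 to 2.28, 4.13, 2.06 and 1.28 (log2 change -1.63 ± 0.26, adjusted p = 0.00016). In both genes the highest liver of ZT24 was below the lowest of ZT20. Cyp2a5, a cytochrome P450 that oxidizes coumarin and nicotine, fell from 847, 868, 811 and 951 to 357, 333, 292 and 315 scaled counts (log2 change -1.42 ± 0.26, adjusted p = 0.00091). The pseudogene Cyp2a21-ps fell from a mean of 13.9 ± 3.27 (SD, n = 4) to 2.13 ± 1.15 (SD, n = 4), with a log2 change of -2.29 ± 0.45 (adjusted p = 0.0023). These 2 genes belong to a family of near-identical copies, so the counts of each are uncertain.

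Promoters were searched because these genes moved together. The 250 bases before the start of each gene were read from the RefSeq table (GRCm38.p6), which held 55 of the 70 genes looked up, and were searched on both strands for the E-box CACGTG, the D-box TTATGNAA and the heat shock element pair GAANNTTC. Of 32851 promoters in the table, 6.02% held the E-box, 3.07% the D-box and 6.69% the heat shock pair. These shares count every promoter, while in the gene sets a gene was counted once if any of its promoters held the motif. A gene with several promoters had more chances, so the counts of genes and these shares are unlike measures. Of the 16 clock genes with a promoter there, 5 held the E-box (Per1, Cry1, Tef, Ciart and Bhlhe41) and 2 the D-box (Per1 and Per3). The stretches below belong to genes that fell, run 5′ to 3′ on the gene's strand, and carry the matched letters in capitals. The starts are those of RefSeq, and for Per1 and Tef the stretch precedes a start that lies within the gene span of the annotation. For Per1 (chr11:69098763-69098943, plus strand) the E-box begins 166 bases and the D-box 24 bases before that start. The other stretches are Per3 (chr4:151044796-151044890, minus strand, with D-boxes 205 and 158 bases before the start), Cyp2a5 (chr7:26835248-26835295, plus strand, D-box on the other strand), Cry1 (chr10:85185089-85185134, minus strand, E-box) and Tef (chr15:81811256-81811301, plus strand, E-box).
Per1: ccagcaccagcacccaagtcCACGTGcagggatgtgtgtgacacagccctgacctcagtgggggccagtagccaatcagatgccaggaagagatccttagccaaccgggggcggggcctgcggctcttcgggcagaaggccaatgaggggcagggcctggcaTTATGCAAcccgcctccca
Per3: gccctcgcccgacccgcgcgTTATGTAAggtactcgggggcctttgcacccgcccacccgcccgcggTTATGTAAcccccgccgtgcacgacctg
Cyp2a5: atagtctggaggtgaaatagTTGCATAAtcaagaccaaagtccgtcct
Cry1: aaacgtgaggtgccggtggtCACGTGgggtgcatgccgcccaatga
Tef: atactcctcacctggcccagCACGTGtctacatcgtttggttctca
These matches describe letters in a window and not bound sites. The D-box is the element read by TEF, HLF and DBP. Among the 24 largest changes, clone- and locus-named genes left out, 19 genes had a promoter. Of these, 4 held the D-box, namely Per1, Per3, Cyp2a5 and Syt1, the last of which rose.

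Of 18 heat shock protein genes tested 5 fell and 0 rose, 17 of the 18 had a negative log2 change, and the list median was -0.32. The 5 were Hspa4l, Hspb1, Hsp90ab1, Ahsa1 and Fkbp4, which encode an HSP110-type nucleotide exchange factor, a small heat shock protein, the constitutive HSP90, its ATPase activator and an HSP90-bound immunophilin. Hspa4l measured 46.1, 48.0, 48.3 and 51.9 scaled counts at ZT20 and 25.7, 24.1, 23.2 and 29.1 at ZT24 (log2 change -0.91 ± 0.12, adjusted p = 2.9e-06). Hsp90ab1 measured 346, 420, 404 and 451 and then 257, 239, 260 and 260 (log2 change -0.67 ± 0.11, adjusted p = 0.00021). Neither gene overlapped between the times, and neither call depended on a single liver. Hspb1 went from 22.7 ± 3.93 (SD, n = 4) to 11.1 ± 2.32 (SD, n = 4), with a log2 change of -0.97 ± 0.17 (adjusted p = 0.00053). Ahsa1 changed by -0.37 ± 0.09 (adjusted p = 0.015) and lost its call without any of 5 livers, and Fkbp4 changed by -0.44 ± 0.11 (adjusted p = 0.029). The strongly inducible members did not pass: Hspa1a and Hspa1b, near-identical copies, had log2 changes of -0.05 and 0.03, Dnajb1 of -0.17 and Hsph1 of -0.62 (adjusted p = 0.40).

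The heat shock pair GAANNTTC stood in the promoters of 7 of the 14 heat shock genes that the table held, Hspb1 and Fkbp4 among the 5 that fell. For Hspb1 (chr5:135887782-135887849, plus strand) they start 117 and 97 bases before the gene, and for Fkbp4 (chr6:128438780-128438827, minus strand) 151 bases before it.
Hspb1: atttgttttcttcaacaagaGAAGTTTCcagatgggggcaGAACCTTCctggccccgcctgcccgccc
Fkbp4: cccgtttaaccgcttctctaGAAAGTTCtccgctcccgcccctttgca
Of the other 5 heat shock genes that held the pair, namely Dnaja1, Hspa1a, Hspa1b, Hspd1 and Hspe1, 0 were called.

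Among genes of fatty acid supply 1 was called. Gpam, the mitochondrial acyltransferase that starts triglyceride synthesis, fell from 1041, 2131, 855 and 1356 scaled counts to 524, 345, 486 and 610 (log2 change -1.39 ± 0.34, adjusted p = 0.017), and the call was lost without ZT20 replicate 2 or ZT24 replicate 2. It was the only call among the 14 lipogenesis genes, 11 of which had a negative change and whose median was -0.41. Fasn, which encodes fatty acid synthase, had a log2 change of -0.83 (adjusted p = 0.33), Elovl6 of -0.98 (0.11) and Pnpla3 of -1.37 (0.091). Among 20 sterol synthesis enzymes 15 had a negative change, with a median of -0.18, and among 9 genes of the SREBP system 6 had, with a median of -0.24. Srebf1 changed by -0.25 (adjusted p = 0.70) and Srebf2 by 0.06 (0.95).

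In sugar and glycogen metabolism 2 genes were called, in opposite directions. Gys2, the liver glycogen synthase, fell from 474, 492, 378 and 461 scaled counts to 259, 238, 247 and 269, a log2 change of -0.82 ± 0.11 (adjusted p = 1.5e-05). Phka2, the liver regulatory subunit of phosphorylase kinase, which turns on glycogen breakdown, rose from 64.3, 62.4, 59.1 and 58.0 to 72.9, 72.4, 75.4 and 76.3, a log2 change of 0.28 ± 0.04 (adjusted p = 0.00014). Every liver of ZT24 lay below those of ZT20 for Gys2 and above them for Phka2. The other 11 glycogen genes did not pass, Pygl, the phosphorylase itself, among them at 0.06 (adjusted p = 0.94). Of 14 glycolysis genes 0 were called, though 13 had a negative change (median -0.20). Gluconeogenesis (0 of 8) and fatty acid oxidation and ketogenesis (0 of 19) had medians of -0.10 and -0.03. Pck1 changed by 0.08 (adjusted p = 0.99) and Cpt1a by 0.04 (0.98).

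Of 13 genes of NAD synthesis and use, 2 fell and 0 rose, with a list median of -0.04. Nampt, the rate-limiting enzyme of NAD salvage and a known clock target, went from 39.4, 41.9, 37.9 and 42.3 scaled counts to 28.3, 27.9, 25.2 and 27.9 (log2 change -0.55 ± 0.10, adjusted p = 0.0016). Nmrk1, which phosphorylates nicotinamide riboside, went from 39.5, 35.0, 31.4 and 27.9 to 25.7, 20.4, 16.1 and 24.9 (log2 change -0.61 ± 0.14, adjusted p = 0.012) and lost its call without ZT20 replicate 1 or ZT24 replicate 3. Tfrc, the transferrin receptor that takes up iron, fell from 61.0, 45.7, 57.3 and 65.4 to 14.5, 16.4, 33.3 and 27.0 (log2 change -1.36 ± 0.34, adjusted p = 0.022). Its call was lost without any of 4 livers.

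Among amino acid and one-carbon genes, calls went in both directions. Amdhd1, of histidine breakdown, rose (log2 change 0.62 ± 0.11, adjusted p = 0.00064), as did Cbs, which draws homocysteine into cysteine synthesis (0.48 ± 0.09, adjusted p = 0.00091), and Slc7a8, an amino acid transporter (0.58 ± 0.16, adjusted p = 0.047). Gpt2 (-0.59 ± 0.16, adjusted p = 0.042), Asl of the urea cycle (-0.57 ± 0.16, 0.048) and Ahcy, which splits S-adenosylhomocysteine (-0.52 ± 0.13, 0.021), fell. The calls of Slc7a8, Gpt2, Asl and Ahcy were each lost without any of 5 or more single livers, while those of Amdhd1 and Cbs were kept without each liver in turn.

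Of 8 genes of the growth hormone axis, Stat5a and Stat5b, transcription factors downstream of growth hormone, rose and 0 fell (median 0.24), and for both every liver of ZT24 lay above those of ZT20. Stat5b measured 154, 145, 156 and 177 scaled counts at ZT20 and 280, 213, 208 and 213 at ZT24 (log2 change 0.52 ± 0.11, adjusted p = 0.0038). Stat5a measured 11.5, 12.7, 12.4 and 13.6 and then 21.5, 17.7, 18.3 and 14.9 (0.49 ± 0.11, adjusted p = 0.0070). The receptor Ghr changed by -0.01 (adjusted p = 1), Igf1 by 0.19 (0.71) and Socs2 by 0.71 (0.39). The 2 genes lie next to each other on chromosome 11 (chr11:100859351-100885169 on the plus strand for Stat5a and chr11:100780731-100850724 on the minus strand for Stat5b).

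Of 9 bile acid and sterol transporters 2 rose and 0 fell, with a median of 0.03. Abcb11, the bile salt export pump, went from 588, 568, 572 and 620 scaled counts to 783, 804, 819 and 794 (log2 change 0.45 ± 0.10, adjusted p = 0.0060). Abcg8, a partner of the sterol exporter Abcg5, went from 11.4, 10.8, 16.2 and 11.03 to 25.7, 25.4, 18.9 and 18.5 (0.80 ± 0.18, adjusted p = 0.0099). Both were higher in every liver of ZT24. Abcg5 itself changed by 0.14 (adjusted p = 0.79), and of 12 bile acid synthesis genes 0 were called, with Cyp7a1, the rate-limiting enzyme, at -0.36 (0.81).

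The 12 largest increases among genes with a name other than a clone or locus name covered a wide range of functions. Loxl4, a lysyl oxidase that crosslinks collagen, had one of the smallest adjusted p-values, at 8.63, 20.9, 15.8 and 15.1 scaled counts at ZT20 and 37.5, 24.4, 31.8 and 36.9 at ZT24 (log2 change 1.10 ± 0.18, adjusted p = 0.00018). Lgr5, the R-spondin receptor found in pericentral hepatocytes, measured 13.3, 12.0, 20.5 and 16.1 and then 29.1, 42.6, 32.7 and 26.1 (1.03 ± 0.19, adjusted p = 0.00075). Syt1, a calcium sensor of vesicle fusion, measured 32.8, 34.0, 32.6 and 37.0 and then 73.0, 73.7, 113 and 69.6 (1.22 ± 0.23, adjusted p = 0.0014). The mean levels were 2.16-fold (Loxl4), 2.11-fold (Lgr5) and 2.41-fold (Syt1) higher at ZT24, with no overlap. Crot, which moves shortened fatty acids out of the peroxisome as carnitine esters, rose from 370, 310, 315 and 441 to 741, 654, 730 and 550 (0.90 ± 0.20, adjusted p = 0.0070), and Ndrg1, a gene induced by several stresses, from 33.4 ± 6.56 (SD, n = 4) to 62.6 ± 6.90 (SD, n = 4) (0.90 ± 0.19, adjusted p = 0.0049).

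The remaining increases were Adgrf1 (log2 change 1.26), Hectd2os (1.18), Nckap5 (1.09), Rfx4 (0.997), Tmem26 (0.89), Zc3h12d (0.84) and Abcg8 above. The Adgrf1 call was lost without ZT24 replicate 3, and that of Zc3h12d without any of 5 livers. Hectd2os is an antisense gene, 46.1% of whose exon bases overlap exons of the other strand, and the setting for strand in counting is not given, so its reads cannot be told from those of Hectd2, which had a log2 change of -0.12 (adjusted p = 0.91). Nckap5 rested on ZT24 replicate 4, which held 20.03 scaled counts where the other 3 livers of ZT24 held between 5.47 and 9.26, and without that liver its adjusted p was 0.084. The remaining decreases were Crb2 (log2 change -1.40, adjusted p = 0.026) and St3gal5, the sialyltransferase that makes the ganglioside GM3, which went from 89.9, 123, 92.1 and 68.5 to 50.1, 30.1, 40.5 and 40.1 (-1.19 ± 0.25, adjusted p = 0.0053). The Crb2 call was lost without any of 5 livers.

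Large gene groups of the cell's machinery showed few or no calls. Of 80 cytosolic ribosomal proteins, 78 nuclear respiratory chain subunits, 75 mitochondrial ribosomal proteins, 35 ribosome biogenesis genes, 31 proteasome subunits, 23 genes of the endoplasmic reticulum stress response, 22 splicing factors and 16 of the integrated stress response, 0 were called, with medians between -0.06 and 0.11. Over all 50 lists, 41 of 889 different genes were called, 12 upward and 29 downward, where 1.89% of all genes tested were called. At that share a short list may hold 0 calls without differing from the rest of the genes.

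**Figure D2:**
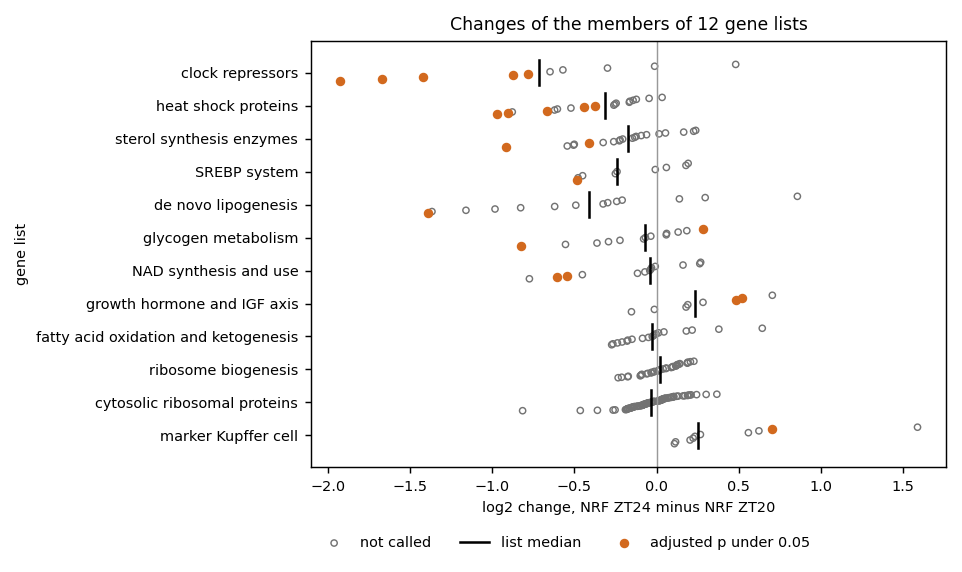
Log2 change from ZT20 to ZT24 (horizontal axis) of each member of 12 gene lists in night-fed liver, with filled points for an adjusted p under 0.05, open points for the rest and a black bar at the list median. The clock repressors and heat shock proteins hold 5 filled points each to the left of 0, the ribosomal proteins hold none, and all 10 Kupffer cell markers lie to the right.

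Markers of other cell types were summed per liver. The Kupffer cell markers summed to between 637 and 781 scaled counts at ZT20 and between 720 and 1300 at ZT24, and all 10 had a positive change (median 0.25). Exact permutation of the 4 against 4 livers gave a two-sided p of 0.057 (0.49 adjusted over 17 library measures), where the smallest p possible is 0.029. Of the 10, Timd4, a receptor for phosphatidylserine, passed (15.4, 14.2, 18.3 and 17.8 scaled counts against 22.8, 33.4, 21.5 and 33.8, log2 change 0.71 ± 0.19, adjusted p = 0.033), a call lost without any of 6 livers. Marco stood at between 9.21 and 14.6 scaled counts at ZT20 and at 13.8, 56.5, 13.1 and 195 at ZT24, with an adjusted p of 0.14. The 8 lymphocyte markers summed to between 1.19 and 1.89 and then between 2.07 and 2.98 scaled counts, with no overlap and 0 genes called. For this low sum the same permutation test gave a p of 0.029 (0.49 adjusted over the 17 measures). Ddx60 (log2 change 0.66 ± 0.17, adjusted p = 0.026), an antiviral helicase, and Slc15a3 (0.57 ± 0.12, adjusted p = 0.0053), a lysosomal histidine transporter of immune cells, rose beside these sums. The Slc15a3 call was lost without ZT24 replicate 4, and the Ddx60 call without ZT24 replicate 4, ZT20 replicate 3 or ZT20 replicate 4. The part of these cells in any of the changes above was not tested. The summed markers of endothelium, stellate cells, cholangiocytes, neutrophils and erythroid cells overlapped between the times, and 0 of their members were called.

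The change of ZT20 to ZT24 was then set beside day-fed liver. The comparison with DRF ZT12 minus DRF ZT8 asks what the same feeding stage shares between regimens. That with DRF ZT24 minus DRF ZT20 asks what the same hours share, and neither uses a library of the night-fed pair. The paper reports a complete phase reversal of liver clock genes under day feeding. Feeding stage and the phase of the liver clock therefore cannot be told apart in the first comparison. Of the 481 night-fed calls, 154 (32.0%) were also called at the same feeding stage, where 10.01% of all genes were, and they were 6.06% of the 2542 genes called there. Of the 154, 146 had the same direction. At the same clock time 48 (9.98%) were also called, where 1.85% of all genes were, and they were 10.2% of the 470 genes called there. Of the 48, 23 had the same direction. In terms of sign alone, 76.7% of the 481 agreed at the same feeding stage, against 52.3% of all genes, and 57.8% at the same clock time, against 56.1%. An index of how far levels lean towards long genes differed between DRF ZT8 (mean -0.23) and ZT12 (0.13), a gap larger than that of the night-fed pair (0.11 and 0.18). With levels corrected for length, 169 of 559 night-fed calls (30.2%) were also called at the same feeding stage, where 9.17% of all genes were, and 161 of them had the same direction. At the same clock time these were 53 (9.48%), where 1.98% of all genes were called, and 21 of them had the same direction.

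Several clock and NAD genes that fell in NRF rose over the same hours in DRF. Per2 rose by 1.16 in DRF from ZT20 to ZT24, so that the regimens differed by -3.09 ± 0.37 (adjusted p of the difference 7.0e-07). Per3 rose by 1.35 (difference -3.02, adjusted p = 2.1e-09), Wee1 by 1.05 (-2.31, 2.1e-09) and Usp2 by 1.21 (-2.84, 3.0e-06). All 4 had risen past the threshold in DRF. Gys2 (0.54 in DRF, difference -1.37, adjusted p = 6.3e-07), Nampt (0.50, -1.04, 1.6e-05), Nmrk1 (0.76, -1.37, 2.5e-05), Hlf (0.78, -1.49, 0.00080) and Dbp (0.97, -1.60, 0.0013) did the same, Dbp without passing in NRF. Per1, Tef and Cyp2a5 differed as well, with differences of -2.05 (adjusted p = 0.0013), -2.01 (3.0e-06) and -2.29 (0.00018), though their rise in DRF did not pass.

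In the other direction, Abcb11 and Abca8b rose in NRF and fell in DRF over the same hours, by -0.44 and -0.45, with differences of 0.89 (adjusted p = 7.8e-05) and 1.11 (6.2e-06). Cbs likewise fell in DRF by -0.43 (difference 0.91, adjusted p = 8.0e-06). Loxl4, Ndrg1, Hectd2os and Rfx4 differed by 1.60, 1.53, 1.41 and 1.15 (adjusted p of the difference 0.00010, 0.00056, 0.0045 and 0.010) without a called change in DRF. Hsp90ab1, Hspb1 and Ahsa1 changed by -0.20, -0.36 and -0.18 over these hours in DRF, and their differences from NRF did not pass (adjusted p 0.16, 0.28 and 0.69). Hspa4l differed by -0.72 (adjusted p = 0.014). Over all genes 300 differed between the regimens at the same clock time (1.18%), 128 of them among the 481, a count that shares the night-fed libraries with the calls themselves.

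At the same feeding stage, many of the named genes were called in the same direction. In DRF from ZT8 to ZT12, Per3 fell (log2 change -1.35, adjusted p = 3.1e-05), as did Wee1 (-1.09, 2.6e-05), Cry2 (-0.78, 1.3e-05), Tef (-0.81, 0.0028), Usp2 (-0.98, 0.011), Tfrc (-1.44, 0.0043), Gys2 (-0.54, 0.0015) and Nampt (-0.43, 0.0055). Hsp90ab1 (-0.68, 8.7e-05), Hspb1 (-0.89, 0.00058), Hspa4l (-0.51, 0.0033) and Ahsa1 (-0.44, 0.0010) fell there too, as did Fkbp4 (-0.64, 0.00026) and Stip1 (-0.60, 0.039). The heat shock list as a whole was mixed at that stage, with 6 members lower and 4 higher, namely Hspa8 (1.04, 0.0028), Hspa1b (1.16, 0.045), Chordc1 (0.56, 0.025) and Bag3 (0.68, 0.037), and of these Hspa8, the constitutive HSP70, differed between the regimens (difference -1.21, adjusted p = 0.043). Of the named genes that rose in NRF, Npas2 (1.29, 1.1e-05), Loxl4 (0.79, 0.0026), Abcb11 (0.54, 0.00026), Phka2 (0.41, 1.8e-07) and Crot (0.71, 0.015) rose there. For none of the genes named here but Hspa8 did the difference between the regimens pass, which does not show that the sizes were equal. For Per3, for example, the difference was -0.32 ± 0.28.

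Some genes changed in night-fed liver and differed from the day-fed feeding stage. Per2 differed by -1.47 ± 0.37 (adjusted p = 0.028), its day-fed change being -0.46 (adjusted p = 0.31), and Per1 by -1.42 ± 0.38 (0.040), with a day-fed change of -0.01. St3gal5 (difference -1.46, adjusted p = 0.025), Gda, which encodes guanine deaminase (-1.16, 0.0035), and Cyp2a21-ps (-2.30, 0.046) fell in NRF without a called change in DRF. Lgr5 (1.05, 0.028), Tmem26 (0.96, 0.025), Slc7a8 (0.96, 0.024) and Ddx60 (0.88, 0.040) rose in NRF without a called change in DRF, and Slc15a3 rose in NRF and fell in DRF (1.03, 0.0015). Stat5a and Stat5b differed by 0.60 (adjusted p = 0.028) and 0.54 (0.046). Over all genes 526 differed (2.07%), 71 of them among the 481, a count that also shares the night-fed libraries with the calls themselves. The 526 became 166 without NRF ZT24 replicate 4 and 192 without DRF ZT12 replicate 4.

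**Figure D3:**
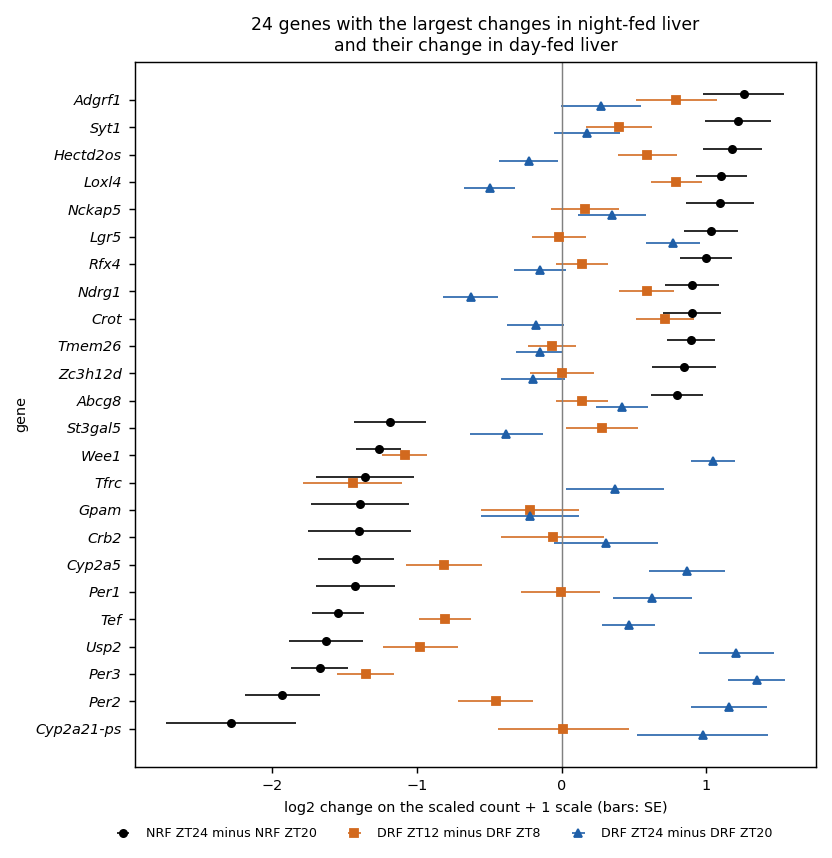
Log2 change with its standard error for the 24 genes with the largest changes in night-fed liver, clone- and locus-named genes left out (black circles, NRF ZT24 minus ZT20), with the change at the same feeding stage (orange squares, DRF ZT12 minus ZT8) and at the same clock time (blue triangles, DRF ZT24 minus ZT20) of day-fed liver. For Per3, Usp2, Tef, Cyp2a5 and Wee1 the orange squares lie to the left of 0 with the black circles and the blue triangles to the right.

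The interval was one step of a daily course. Per2 averaged 96.3 scaled counts in night-fed liver at ZT16, 68.1 at ZT20, 17.7 at ZT24 and 5.60 at ZT4, and in day-fed liver it was highest at ZT4 (92.3). Wee1 and Gys2 were highest at ZT12 in night-fed liver (31.6 and 1070 scaled counts) and had already come down to 13.02 and 451 by ZT20. Hspa4l stood at 13.3 at ZT12, 48.0 at ZT16 and 48.6 at ZT20, and at 25.5 at ZT24. Npas2 averaged 0.137 at ZT16, 3.31 at ZT20 and 7.63 at ZT24, and Loxl4 2.08, 15.1 and 32.6.

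**Figure D4:**
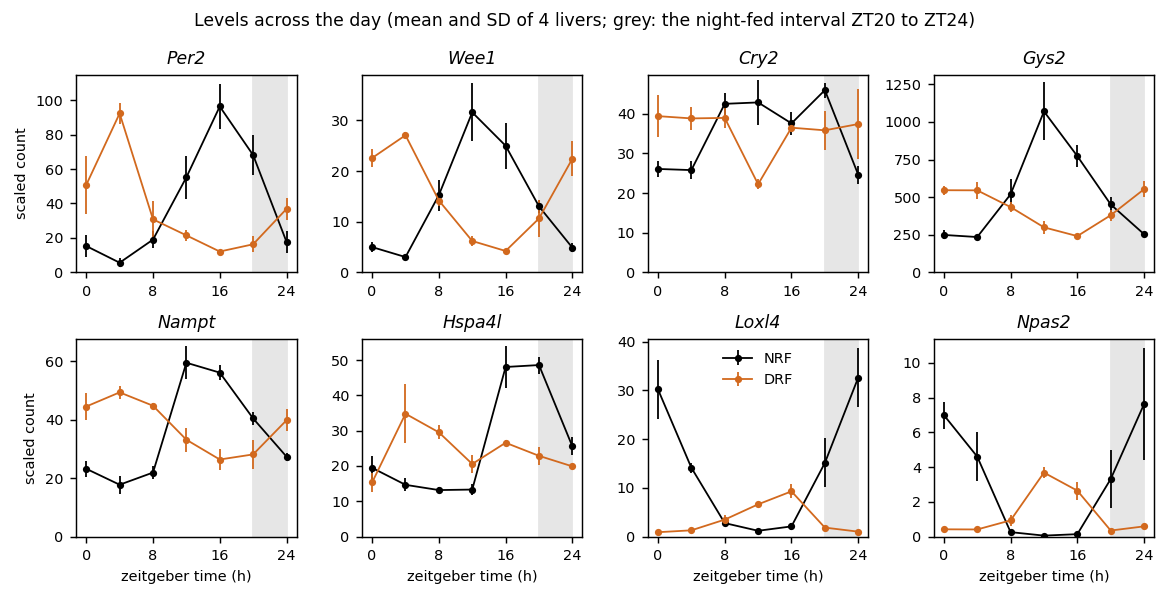
Mean scaled count with SD (n = 4 livers) of 8 genes across zeitgeber time 0 to 24 h in night-fed (black) and day-fed (orange) liver, with the interval ZT20 to ZT24 in grey. In night-fed liver Per2, Wee1, Gys2 and Nampt run downhill from ZT16 through the interval, Cry2 and Hspa4l are lower at its end than at its start, and Loxl4 and Npas2 climb through it.

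The livers of ZT0 share the clock time of ZT24, and their comparison with ZT20 shares the ZT20 livers with the main one, so values are given side by side. Against ZT20, Per2 changed by -2.18 at ZT0 and -1.93 at ZT24, Cry2 by -0.80 and -0.88, Gys2 by -0.86 and -0.82, Hspa4l by -1.29 and -0.91, Loxl4 by 0.99 and 1.10, and Lgr5 by 0.94 and 1.03. Crb2 went the other way, at 0.20 for ZT0 (adjusted p = 0.83) and -1.40 for ZT24, and averaged 15.9 ± 2.25 (SD, n = 4) scaled counts at ZT0 against 5.004 ± 2.99 (SD, n = 4) at ZT24. Timd4 (0.26, adjusted p = 0.45), Tmem26 (0.31, 0.26) and Ddx60 (0.17, 0.62) did not pass at ZT0. ZT0 differed from ZT20 in 2830 genes (11.1%), and its length index averaged -0.18, below those of ZT20 and ZT24. ZT24 and ZT0 themselves differed in 2028 genes (7.99%), 603 higher and 1425 lower at ZT24. With the length correction the ZT0 against ZT20 count was 2674, split into 1257 increases and 1417 decreases at ZT0, whereas without it the split was 1604 and 1226. The count between ZT24 and ZT0 was not computed with it.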

How the data were processed

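Liver RNA was sequenced from 56 mice in 14 groups of 4, and the 8 libraries of NRF ZT20 and NRF ZT24 are the subject here. Per the labels, ribosomal RNA was depleted and strand-specific libraries were made, while the molecule field reads polyA RNA. The submitters' processing notes name CASAVA 1.8, featureCounts 1.5.0-p3, mm10 and GRCm38.p6, and the strand setting of the counting is not given in the sources used here. The gene table that the authors deposited is headed TPM, but its values did not behave as such and were treated as a score. A value times exon length followed a library factor times the natural log of 1 plus a scaled count, and this was inverted for 25397 of 25415 genes, 23012 of them with the annotated exon length (GENCODE, GRCm38) and 2229 with a length that made the values whole. In genes held out when the library factors were fitted, between 93.4% and 98.9% of values came out within 0.05 of a whole count. Recovered counts (376 to 700, in units of 1e6, per library here) exceed plausible read numbers, so they were not used as depth or in a count model, and no counting error is given.

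Differences were fitted with limma 3.58.1 (R 4.3.3) on log2(scaled count + 1) over all 56 libraries and 14 groups, with Benjamini-Hochberg adjustment over 25397 genes and a threshold of 0.05, after checks on simulated data. Differences between regimens were contrasts of the same fit. Library measures were compared by two-sided exact permutation tests (scipy 1.17.1). Nothing beyond the labels says how the animals were drawn, so p-values refer to these libraries only. In the limma fit they set a difference against the spread within groups, pooled over all 56 libraries and 14 groups. No pair of replicates held identical values. Named genes were the 12 largest increases and 12 largest decreases with non-overlapping groups and a mean of at least 5 in the higher group, leaving out clone- and locus-named genes (21 met the other conditions, Gm47287 and AC127342.1 with larger changes than any named), up to 4 members of each list by adjusted p, all clock list members, the 5 largest differences in each direction per regimen contrast, and members listed as not called. Abca8b and Gda come from the regimen contrasts. Fkbp4, Stip1, Hspa8, Chordc1, Bag3, AC127342.1, Hectd2, Gm47287 and Rn7s1 were chosen after their values were seen. The gene lists and comparisons were chosen with earlier results of these data known. Alternatives were the deposited values, other pseudocounts, a filter on low values, median-of-ratios scaling, a length correction, the compared groups alone, a replicate block and leaving out each library. Some genes are not reported here. Other tables of the series were not used here.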

Additional observations from a re-analysis of the deposited data

Results flagged for a closer look

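Of 166 groups of 4 values, 14 held a liver far from the other 3, where chance gives about 5% of groups. At ZT20 these were Abcg8 at 16.2 scaled counts in replicate 3, Bhlhe41 at 0.0557 in replicate 4, and, all in replicate 1, Trib1 at 12.4, Ahcy at 1772 and Ahsa1 at 20.7. At ZT24 replicate 1 stood apart for Cyp2a21-ps (3.84), Per3 (5.83) and Stat5b (279.6), replicate 2 for Nfil3 (49.7) and Hsp90ab1 (239), replicate 3 for Syt1 (113) and Nampt (25.2), and replicate 4 for Arntl (81.2) and for the summed mitochondrial genome (10952).

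By the naming rule, the 5 largest differences in each direction for each of the regimen comparisons are given here, 20 in all. They passed the test of the difference itself, and further named genes that passed stand in the report. Against the same clock time in DRF the differences in log2 change were -3.26 for Cyp2a21-ps, -3.09 for Per2, -3.02 for Per3, -2.84 for Usp2, -2.31 for Wee1, 1.60 for Loxl4, 1.53 for Ndrg1, 1.41 for Hectd2os, 1.15 for Rfx4 and 1.11 for Abca8b. Against the same feeding stage they were -2.30 for Cyp2a21-ps, -1.47 for Per2, -1.46 for St3gal5, -1.42 for Per1, -1.16 for Gda, 1.05 for Lgr5, 1.03 for Slc15a3, 0.96 for Tmem26, 0.96 for Slc7a8 and 0.88 for Ddx60.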

How the results depend on the processing

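The 481 calls became 252 on the deposited values (170 higher, 82 lower, so that 67.5% were higher against 44.1%) and 77 in a fit of the compared groups alone, and between 251 and 505 with 1 library left out. Differences from the same feeding stage went from 526 to 316 on the deposited values (75 higher, 241 lower), 962 in the compared groups alone and between 166 and 578 with 1 library left out. Those from the same clock time went from 300 to 130, 199 and between 191 and 312. ZT0 minus ZT20 went from 2830 to 4471 on the deposited values (823 higher, 3648 lower), 1501 in the compared groups alone and between 1595 and 2940 with 1 library left out, and median-of-ratios scaling gave 1330 higher and 1644 lower against 1604 and 1226. List members called went from 41 to 24, 11 and between 25 and 41. The cause of these shifts was not tested.

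Same-numbered replicates correlated in their deviations at between -0.23 and -0.06 for the night-fed pair, 0.0478 and 0.304 for ZT0 and ZT20, 0.00518 and 0.0743 for DRF ZT12 and ZT8, and -0.13 and 0.0722 for DRF ZT24 and ZT20. In no comparison were all 4 above 0.1, so the numbers were not taken to pair the livers. With the replicate block the counts were 490, 404, 264 and 2932 genes and 40 list members. Of the 60 named genes called, 34 kept their call without each library in turn and 9 under every alternative, and 0 changed direction in any of them.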

Other observations

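Of the 481 called genes, 18 were annotated as antisense, 16 lower and 2 higher at ZT24. All 18 overlapped a coding gene, which was itself called for 10, each time in the same direction, and without the strand setting of the counting the reads of such a pair cannot be told apart.

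Gm47287, a 70-base gene annotated as a miRNA (chr12:69159437-69159506, GRCm38, plus strand), lies within Rn7s1 (chr12:69159295-69159594, plus strand), a copy of the signal recognition particle RNA. It held 108, 686, 527 and 890 scaled counts in the 4 livers of ZT20 and was at or near 0 in the 4 of ZT24. It was above 3 recovered counts in all 4 livers of NRF ZT20, DRF ZT12 and DRF ZT16, in 3 of NRF ZT16 and of DRF ZT20, in 1 of NRF ZT12 and in 0 of the other 8 groups. Rn7s1 itself held 2366, 1789, 1088 and 1994 scaled counts at ZT20 and 2689, 2015, 2911 and 4190 at ZT24 (log2 change 0.71 ± 0.28, adjusted p = 0.23).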
